A study of Mus musculus with 12 samples.

Results

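The genes described here run cell division in the embryonic mouse cortex: the cyclins, the cyclin-dependent kinases *Cdk1*, *Cdk2*, *Cdk4* and *Cdk6*, and the proteins that condense chromosomes, attach them to the spindle, check the attachment and split the cell. They were chosen by gene symbol from the deposited table of coding genes, without use of their values, and 77 of the 4859 genes in that table matched. The table holds only genes that the study itself had called different between 2 sorted cell populations on these same libraries, so the number of these genes that differ is not independent evidence of their direction. RNA was sequenced from cells of the cerebral cortex of the mouse strain Tg(Ebf2-EGFP)FB58Gsat, which carries a bacterial artificial chromosome with green fluorescent protein (EGFP) under the *Ebf2* promoter. Cells were sorted by flow cytometry into Ebf2-EGFP+ and Ebf2-EGFP- fractions on embryonic days E11.5, E13.5 or E15.5, with 2 libraries in each of the 6 groups. All groups carried the transgene and none was treated. EGFP reports the activity of the *Ebf2* promoter, not a cell type, and embryos of several litters were pooled for each sort.

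Cyclins switch on their kinase partners in turn as a cell passes through its cycle. D-type cyclins with Cdk4 or Cdk6 start the passage out of G1 by inactivating the retinoblastoma protein, E-type cyclins with Cdk2 bring the cell into DNA synthesis, and A-type and B-type cyclins with Cdk2 and Cdk1 carry it through G2 and into mitosis. In mitosis the kinetochore, built on centromeric chromatin, binds spindle microtubules, the spindle checkpoint holds back the anaphase-promoting complex until every chromosome is attached, and the chromosomal passenger complex corrects wrong attachments and later helps to cleave the cell. In the early cortex these genes are used by radial glia, which divide at the ventricle, and by intermediate progenitors, while Cajal-Retzius, subplate and cortical plate neurons have left the cycle.

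Many mitotic genes are known to share a promoter arrangement in which a CHR element, bound by the MuvB core of the DREAM complex, lies near CCAAT boxes bound by NF-Y. The 150 bases before the first annotated base of *Top2a*, *Cdc20*, *Mki67* and *Cdk1*, and of *Plk2*, which moved the other way in expression, are given below from RefSeq (GRCm38.p6), on the strand of the gene and 5′ to 3′. The first 4 were picked from the cyclins, Cdks and the 2 most abundant genes of each other role. They were picked because, among those with a readable window, they alone held both motifs in these 150 bases. Their counts of motifs and the contrast with *Plk2* therefore follow from the choice. *Ccna2*, *Ccnd1*, *Ccnd2*, *Ccne2* and *Tpx2* had no promoter entry and were not examined. *Ccnb2*, *Bub1b*, *Cdca3*, *Cdca8*, *Plk1* and *Prc1* held both motifs in their wider windows of 300 bases. Capitals mark CHR letters (the hexamer TTTGAA or its reverse complement TTCAAA, and the palindrome TTCGAA) and the CCAAT box on either strand, which on the other strand reads ATTGG. The stretches are chr11:99024200-99024349 (minus strand) for *Top2a*, chr4:118437344-118437493 (minus) for *Cdc20*, chr7:135716451-135716600 (minus) for *Mki67*, chr10:69352913-69353062 (minus) for *Cdk1* and chr13:110394894-110395043 (plus) for *Plk2*.
Top2a: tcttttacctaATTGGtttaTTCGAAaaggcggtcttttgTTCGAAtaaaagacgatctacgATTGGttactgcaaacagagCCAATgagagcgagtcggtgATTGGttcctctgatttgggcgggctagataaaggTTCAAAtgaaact
Cdc20: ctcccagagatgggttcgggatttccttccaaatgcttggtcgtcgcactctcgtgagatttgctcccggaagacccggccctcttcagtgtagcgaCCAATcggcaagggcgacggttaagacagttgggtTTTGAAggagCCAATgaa
Mki67: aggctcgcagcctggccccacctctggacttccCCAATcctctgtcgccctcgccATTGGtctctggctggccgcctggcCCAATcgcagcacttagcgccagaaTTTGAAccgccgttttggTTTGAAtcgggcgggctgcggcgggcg
Cdk1: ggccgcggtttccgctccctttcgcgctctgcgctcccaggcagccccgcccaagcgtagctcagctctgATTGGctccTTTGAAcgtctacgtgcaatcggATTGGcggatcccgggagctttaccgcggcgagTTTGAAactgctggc
Plk2: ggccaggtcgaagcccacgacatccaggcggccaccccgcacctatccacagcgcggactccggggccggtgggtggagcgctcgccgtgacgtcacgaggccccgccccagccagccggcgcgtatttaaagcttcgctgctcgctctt
The *Top2a* stretch held 3 CHR matches and 4 CCAAT matches, that of *Mki67* held 2 and 3, that of *Cdk1* held 2 and 2, and that of *Cdc20* held 1 and 2. Neither set of letters occurred in the *Plk2* stretch, which was added for contrast after its expression had been seen. Over RefSeq windows of 300 bases around the start, 64 of the 77 genes matched with 71 windows. A CHR match was present in 32 of these windows (45.1%), against 19.2% of all 32851 promoter windows and 14.3% of the 4764 windows of genes in the coding table. A CCAAT box was present in 45 of 71 (63.4%), against 37.4% and 37.3%, and both motifs in 26 of 71 (36.6%), against 7.52% and 6.42%. By role, both motifs were in 5 of 6 windows of the checkpoint and anaphase genes, but in 2 of 10 windows of the cyclins and Cdks. A CHR match and a CCAAT box can share at most 1 base. These are matches of letters and were not tested as binding sites.

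Expression was deposited as FPKM (fragments per kilobase of transcript scaled to the mapped fragments of the library), a level per length, and the number of reads behind each value is not in the table. Differences are given on the scale log2(FPKM + 1) with their standard error (SE), from a limma fit to all 12 libraries, and a gene was called when its adjusted p, taken over all 4859 genes, was below 0.05. The added 1 understates the change of low genes. The 10 markers of Cajal-Retzius cells summed to 216 to 1278 FPKM in Ebf2-EGFP+ libraries and to 14.1 to 26.4 in Ebf2-EGFP- libraries. Radial glia markers (9 of 9 in the table) summed to 90.2 to 442 FPKM in Ebf2-EGFP+ and 470 to 1686 FPKM in Ebf2-EGFP- libraries. Interneuron or ganglionic eminence markers (8 of 8) summed to 3.36 to 15.6 and 63 to 257 FPKM, with the highest values in Ebf2-EGFP- cells at E11.5. Cortical plate markers (7 of 7) had their lowest sums in the Ebf2-EGFP- libraries of E11.5 (82.2 and 82.6 FPKM) and overlapped between the populations at E15.5. Erythroid genes, of which 4 of 9 markers were in the table, summed to 1306 and 2752 FPKM in Ebf2-EGFP- cells at E11.5, to 97.1 and 32.9 in Ebf2-EGFP+ cells at that stage, and to at most 23.2 at later stages. Meningeal or fibroblast markers (5 of 5 in the table) were also highest at E11.5, with 126 and 108 FPKM in Ebf2-EGFP- and 41.6 and 46.8 in Ebf2-EGFP+ cells. In bulk RNA, fewer dividing cells and less of these transcripts per cell cannot be told apart.

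The comparison of the populations at each stage asks how far sorted Ebf2-EGFP+ cells differ from the rest of the cortex in these genes. They were lower in Ebf2-EGFP+ cells at every stage with few exceptions. At E11.5, 72 of the 77 genes were called lower (background over all genes 44.9%), 2 higher (background 36.8%) and 3 neither way. At E13.5 the counts were 74 lower (43.5%), 1 higher (32.1%) and 2 neither, and at E15.5 they were 66 lower (31.6%), 1 higher (25.8%) and 10 neither. The median difference was -1.49, -1.96 and -1.38 on the log2 scale at the 3 stages, against -0.19, -0.19 and -0.11 over all genes. Expressed as FPKM, the median gene of the set reached 32.6%, 20.5% and 19.1% of its Ebf2-EGFP- level at the successive stages, where the 9 radial glia markers had medians of 7.88%, 9.1% and 12%. The Ebf2-EGFP+ cells at E11.5 thus held a larger share of the division genes than of the radial glia markers, as a description with no test. The 5 intermediate progenitor markers summed to 279 and 257 FPKM in Ebf2-EGFP+ and 96.3 and 104 in Ebf2-EGFP- libraries at E11.5. Their sums were lower in Ebf2-EGFP+ libraries at both later stages. The markers were not uniform at E11.5, where *Eomes* was at 142 and 139 FPKM in Ebf2-EGFP+ against 8.08 and 11.7 in Ebf2-EGFP- libraries. *Insm1* and *Neurog2* were also higher in Ebf2-EGFP+ libraries there, *Gadd45g* overlapped, and *Btg2* was lower (15.2 and 12.5 against 16.6 and 16.4 FPKM). Rescaling the libraries by median-of-ratios raised the median of all genes by 0.19, 0.19 and 0.13 at the 3 stages, and the median of the set became -1.23, -1.67 and -1.27. The part of these progenitor markers in the difference of the set was not tested.

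**Figure D1:**
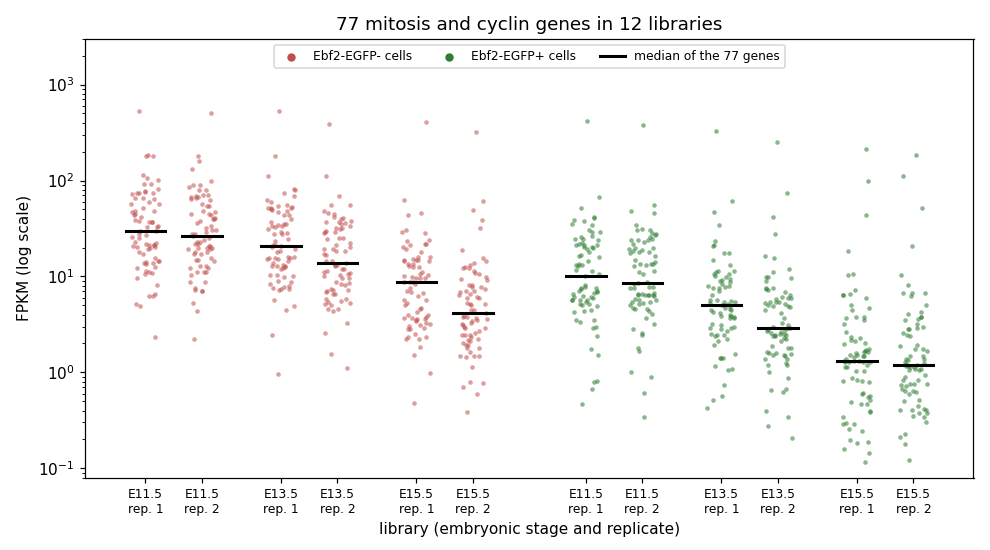
FPKM (log axis) of the 77 mitosis and cyclin genes in each of the 12 libraries, with Ebf2-EGFP- cells in red and Ebf2-EGFP+ cells in green, 1 point per gene and a black bar at the median of the library. The medians go from 29.6 and 26.1 FPKM in Ebf2-EGFP- cells at E11.5 down to 1.33 and 1.19 in Ebf2-EGFP+ cells at E15.5.

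The cyclins and Cdks held 13 members, of which 12, 13 and 10 were called lower in Ebf2-EGFP+ cells at the 3 stages and none higher. Among the D-type cyclins, *Ccnd2* was the most abundant on average. It measured 181 and 179 FPKM in the first Ebf2-EGFP- stage, 179 and 110.98 in the second and 62.7 and 38.6 in the last, and in Ebf2-EGFP+ cells 41.3 and 45.5, 23.2 and 16.4, and 10.5 and 6.73. The populations did not overlap at any stage, and the differences were -2.03, -2.79 and -2.41 (SE 0.28, limma adjusted p = 4.16e-05, 1.03e-05 and 3.6e-05).

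*Ccnd1* (chromosome 7, 144929931 to 144939831, GRCm38.p6) had the steepest course of the set between the first 2 stages. It was at 182 and 133 FPKM in the Ebf2-EGFP- libraries of E11.5 and at 28.9 and 19.3 in those of E13.5, so that the later mean was 15.3% of the earlier one. Ebf2-EGFP+ libraries fell from 30.7 and 24 FPKM to 4.24 and 2.49, to 12.3% of its earlier mean. Both falls were called (-2.67 and -2.72, SE 0.28, limma adjusted p = 1.33e-05 and 1.3e-05), and *Ccnd1* was lower in Ebf2-EGFP+ cells at every stage. By E15.5 it was at 10 and 5.94 FPKM in Ebf2-EGFP- and 2.34 and 1.87 in Ebf2-EGFP+ cells.

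*Ccnd3* (chromosome 17, 47505051 to 47599689) took a course unlike the other D-type cyclins. In Ebf2-EGFP- cells it dropped from 42.1 and 36 FPKM at E11.5 to 15.1 and 10.5 and then to 13.4 and 8.11. The Ebf2-EGFP+ libraries held 6.81 and 7.67, then 5.42 and 5.34, then 10.3 in both libraries. Its population difference was -2.28 (SE 0.22, limma adjusted p = 3.41e-06) at E11.5, -1.09 (limma adjusted p = 0.000959) at E13.5 and -0.02 (limma adjusted p = 0.952) at E15.5, where the Ebf2-EGFP+ libraries lay between the 2 Ebf2-EGFP- libraries. *Ccnd3* was the only member called higher between E13.5 and E15.5 in Ebf2-EGFP+ cells (0.83, SE 0.22, limma adjusted p = 0.0115), and that call was lost without Ebf2-EGFP+ E13.5 replicate 1 (0.84, adjusted p = 0.0532).

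The partner kinases of the D-type cyclins differed from each other. *Cdk4* had the highest mean level of the set over all 12 libraries, 372 FPKM. It was at 535 and 504.1 FPKM in Ebf2-EGFP- and 421 and 377 in Ebf2-EGFP+ libraries at E11.5, a difference of -0.38 (SE 0.21) that was not called (limma adjusted p = 0.111). At E15.5 it was at 404 and 319 against 212 and 182 FPKM, called lower at -0.86 (limma adjusted p = 0.0044). With the replicate number as a block within each stage, the E11.5 difference was called (adjusted p = 0.0032). The E13.5 difference of -0.67 was called (limma adjusted p = 0.0126), but not after median-of-ratios scaling (-0.36, adjusted p = 0.0827), nor without Ebf2-EGFP+ E13.5 replicate 2 (-0.47, adjusted p = 0.125) or Ebf2-EGFP- E13.5 replicate 1 (-0.44, adjusted p = 0.119). *Cdk6* was at 5.13 and 4.35, 7.5 and 6.55, and 6.69 and 6.88 FPKM in Ebf2-EGFP- cells over the stages and stayed between 0.339 and 0.759 in Ebf2-EGFP+ cells, where its mean was 8.52%, 9.62% and 9.4% of the Ebf2-EGFP- mean. The difference was -2.03, -2.26 and -2.25 (SE 0.16, limma adjusted p at most 2.37e-06), so that *Cdk6* kept a large difference while most cyclins fell in both populations. *Cdk6* was called higher between E11.5 and E13.5 in Ebf2-EGFP- cells (0.48, limma adjusted p = 0.0189), a call that was lost with a pseudocount of 0.1 (0.56, adjusted p = 0.0797) and without Ebf2-EGFP- E11.5 replicate 2 (0.39, adjusted p = 0.124) or Ebf2-EGFP- E13.5 replicate 1 (0.40, adjusted p = 0.0832).

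The E-type cyclins, which act with *Cdk2* at entry into DNA synthesis, were low by E15.5. *Ccne1* was at 21.4 and 17.8 FPKM in Ebf2-EGFP- libraries at E11.5 and 2.23 and 1.45 at E15.5, and in Ebf2-EGFP+ cells at 4.91 and 4.66 and then 1.28 and 1.38. Its population difference was called at E11.5 (-1.83, SE 0.29, limma adjusted p = 0.000124) and E13.5, but not at E15.5 (-0.27, limma adjusted p = 0.446), although both Ebf2-EGFP+ libraries still lay below both others. *Ccne2* was lower still, with 4.93 and 5.34 against 0.809 and 0.884 FPKM at E11.5, and 0.979 and 0.384 against 0.115 and 0.18 at E15.5. Its call at E15.5 (-0.53, limma adjusted p = 0.0286) was lost without Ebf2-EGFP+ E15.5 replicate 1 (-0.49, adjusted p = 0.111) or replicate 2 (-0.57, adjusted p = 0.0654), or without Ebf2-EGFP- E15.5 replicate 1 (-0.27, adjusted p = 0.27). *Cdk2* was at 33.1 and 31.7 FPKM in Ebf2-EGFP- and 5.22 and 5.45 in Ebf2-EGFP+ libraries at E11.5, with differences of -2.40, -2.70 and -1.82 (SE 0.28) that were called at all 3 stages.

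The cyclins of G2 and mitosis, with *Cdk1*, were lower in Ebf2-EGFP+ cells throughout, at lower shares of the Ebf2-EGFP- level at each later stage. The change of the difference between E11.5 and E15.5 was called for *Ccnb1*, a call lost when any of 6 single libraries was left out, and not for *Ccna2*, *Ccnb2* or *Cdk1* (limma adjusted p = 0.0766, 0.152 and 0.231). With a pseudocount of 0.1 the change was called for *Ccna2*, *Ccnb2* and *Cdk1* (-1.21, -1.33 and -1.51, limma adjusted p = 0.0251, 0.0374 and 0.0284). With the replicate block it was called for *Ccna2* and *Ccnb2* (limma adjusted p = 0.013 and 0.0202), and with median-of-ratios scaling for *Ccna2* (limma adjusted p = 0.0255). *Ccnb1* (chromosome 13, 100778739 to 100786486), the partner of *Cdk1* at mitotic entry, measured 105 and 85.9 FPKM in Ebf2-EGFP- and 41 and 31.4 in Ebf2-EGFP+ libraries at E11.5. At E13.5 the values were 73.3 and 47.8 against 17.4 and 9.97, and at E15.5 they were 18 and 9.25 against 1.43 and 1.28. Its Ebf2-EGFP+ mean was therefore 37.9%, 22.6% and 9.92% of the Ebf2-EGFP- mean. *Ccna2*, active from DNA synthesis to early mitosis, gave 30.2%, 17.8% and 12.1%, *Ccnb2* gave 34.5%, 15.8% and 12.2%, and *Cdk1* gave 34.8%, 16.3% and 10.1%. All 4 genes were called lower at each stage, with differences from -1.38 to -2.57 (limma adjusted p at most 0.00155). *Cdk1* (chromosome 10, 69335146 to 69352912) was at 36.7 and 30.8, 32.9 and 19.4, and 8.85 and 4.12 FPKM in Ebf2-EGFP- cells, and at 13 and 10.5, 5.39 and 3.11, and 0.598 and 0.712 in Ebf2-EGFP+ cells. *Ccna1*, the cyclin known mainly from the male germ line, stayed at or under 2.32 FPKM in every library and was not called at E15.5 (-0.26, limma adjusted p = 0.123), but was called there without Ebf2-EGFP+ E15.5 replicate 2 (-0.43, adjusted p = 0.0325).

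**Figure D2:**
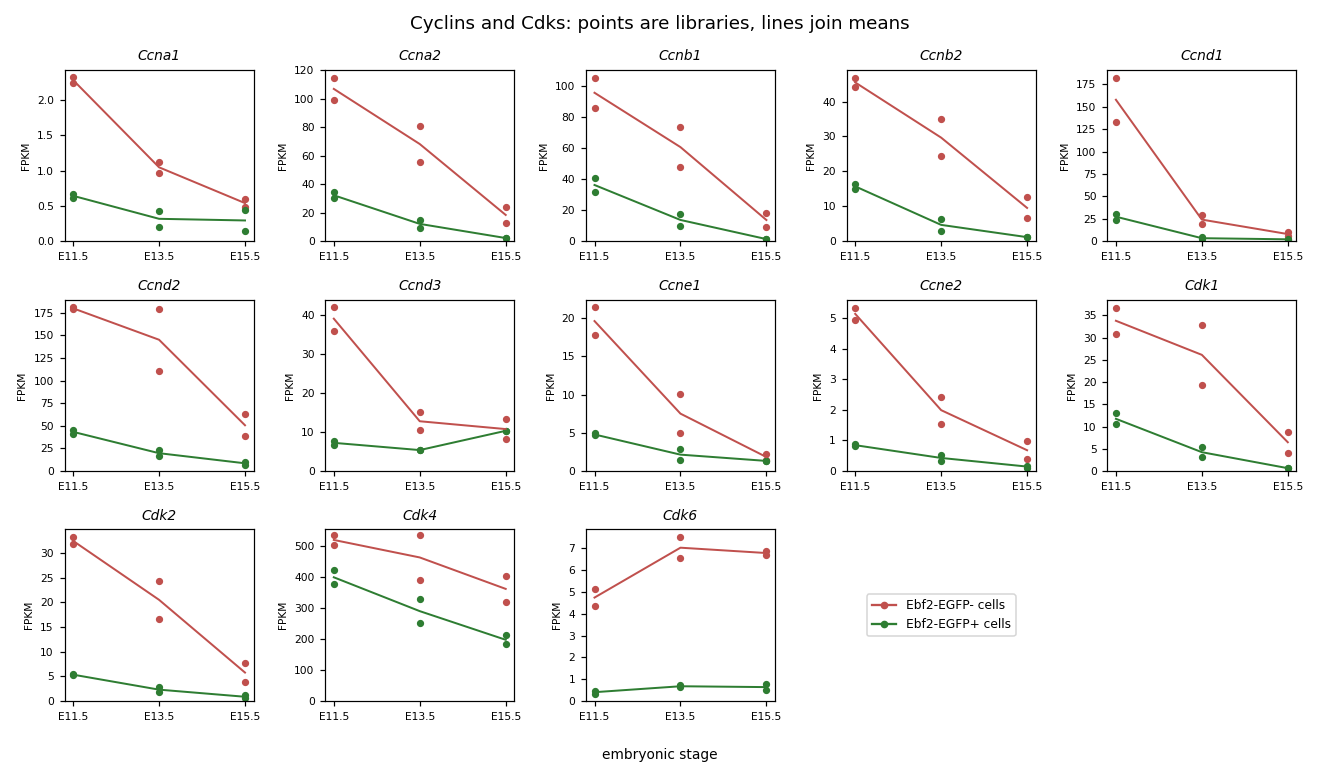
FPKM (linear axes from 0) of the 13 cyclins and Cdks by embryonic stage, 1 point per library and lines through the means of 2 libraries, with Ebf2-EGFP- cells in red and Ebf2-EGFP+ cells in green. Most panels fall in both populations, whereas Cdk6 stays between 4.35 and 7.5 FPKM in Ebf2-EGFP- cells and Ccnd3 meets at about 10.3 FPKM at E15.5.

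The 6 checkpoint and anaphase genes were called lower in Ebf2-EGFP+ cells at all stages, with median differences of -1.48, -2.05 and -1.57. *Cdc20* (chromosome 4, 118432901 to 118437343), the activator of the anaphase-promoting complex, was at 91.1 and 78.9, 80.1 and 55.1, and 29.1 and 14.3 FPKM in Ebf2-EGFP- cells. The Ebf2-EGFP+ libraries held 38.3 and 30.8, 17.6 and 11.3, and 3.76 and 2.83, with no overlap at any stage. *Bub1b*, which encodes the checkpoint kinase BubR1, fell in Ebf2-EGFP+ cells from 19.8 and 18.1 FPKM at E11.5 to 0.879 and 0.888 at E15.5, where the Ebf2-EGFP- libraries held 12.8 and 7.74. Its population differences were -1.61, -2.36 and -2.54 (SE 0.23, limma adjusted p at most 5.73e-05).

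The 4 subunits of the chromosomal passenger complex, *Aurkb*, *Incenp*, *Birc5* and *Cdca8*, were likewise called lower at every stage, with medians of -1.60, -2.32 and -1.93. *Birc5*, which encodes survivin, was at 81.8 and 79.1 FPKM in Ebf2-EGFP- and 26.5 and 23.9 in Ebf2-EGFP+ libraries at E11.5, and at 14.9 and 7.13 against 0.807 and 1.48 at E15.5. *Cdca8*, which encodes borealin, was at 101 and 89.3 against 35 and 28.6 FPKM at E11.5 and at 21.7 and 12.2 against 4.68 and 3.78 at E15.5. At E15.5 *Birc5* was thus at 10.4% and *Cdca8* at 25% of the Ebf2-EGFP- mean, although both began near 32% (31.3% and 33.4%). That gap between subunits of 1 complex was not tested.

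Of the 20 kinetochore and centromere genes, 19, 19 and 18 were called lower in Ebf2-EGFP+ cells at the 3 stages. The 2 most abundant, *Ska2* and *Cenpv*, had small differences and were each uncalled at 1 stage or more. *Ska2*, a subunit of the complex that keeps kinetochores on shrinking microtubules, was at 64.6 and 62.2 FPKM in Ebf2-EGFP- and 51.5 and 47.8 in Ebf2-EGFP+ libraries at E11.5. That difference of -0.35 (SE 0.16) was not called (limma adjusted p = 0.0613), although the libraries did not overlap, and was called with the replicate block (adjusted p = 0.00647) and without Ebf2-EGFP- E13.5 replicate 1 or 2 (adjusted p = 0.0387 and 0.0389). At E15.5 *Ska2* was at 30.7 and 32.3 against 18.4 and 21 FPKM, 62.5% of the Ebf2-EGFP- mean, and was called lower (-0.65, limma adjusted p = 0.00448).

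*Cenpv* (chromosome 11, 62524944 to 62539869), which encodes a centromere protein that also binds microtubules, did not follow most other centromere genes. *Cenpw*, named after its values had been seen, was likewise not called at E15.5 and did not fall over the 3 stages in Ebf2-EGFP+ cells. *Cenpv* was at 36.7 and 38.1, 51.4 and 42, and 44.1 and 49.9 FPKM in Ebf2-EGFP- cells, and at 21.4 and 24, 47.2 and 42.1, and 43.7 and 51.6 in Ebf2-EGFP+ cells. The populations were apart at E11.5 (-0.70, SE 0.15, limma adjusted p = 0.00119) and overlapped at E13.5 (-0.06, adjusted p = 0.739) and E15.5 (0.02, adjusted p = 0.933). From E11.5 to E13.5 it rose in Ebf2-EGFP+ cells by 0.95 (SE 0.15, limma adjusted p = 0.000331), to 197% of its earlier mean. In Ebf2-EGFP- cells the change of 0.31 was not called (limma adjusted p = 0.102), but was after median-of-ratios scaling (0.47, adjusted p = 0.0258).

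The condensins and other genes of mitotic chromosomes held 9 members, of which 9, 9 and 8 were called lower, with medians of -1.49, -2.18 and -1.60. *Top2a* (chromosome 11, 98992947 to 99024199), the topoisomerase that untangles sister chromatids, was at 185 and 159, 110 and 69.4, and 28 and 12.3 FPKM in Ebf2-EGFP- cells. Its Ebf2-EGFP+ values were 66.6 and 55.6, 21 and 11.8, and 2.17 and 1.74, which is 35.5%, 18.3% and 9.68% of the other population. *Mki67* (chromosome 7, 135689784 to 135716450), the gene of the Ki-67 antigen used to score dividing cells, was at 91.8 and 89.9, 52.3 and 36.9, and 14.7 and 11 FPKM in Ebf2-EGFP- cells. Its Ebf2-EGFP+ libraries held 28.8 and 34.7, 10.7 and 6.92, and 1.13 and 1.24 FPKM. The differences of *Mki67* were -1.49, -2.23 and -2.65 (SE 0.22, limma adjusted p = 6.89e-05, 9.65e-06 and 3.88e-06).

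Spindle and cytokinesis genes numbered 9, and 9, 9 and 6 of them were called lower. *Tpx2*, which activates Aurora A on the spindle, was at 73.1 and 66 against 29.4 and 27.3 FPKM at E11.5 and at 16 and 10.6 against 1.62 and 1.93 at E15.5. *Prc1*, which bundles the midzone microtubules in anaphase, was at 74.4 and 67.1 against 24.3 and 21.8 FPKM at E11.5 and at 16 and 7.36 against 1.33 and 1.38 at E15.5. The 3 members of this group that were not called at E15.5, *Haus1*, *Haus3* and *Haus4*, all belong to augmin, the complex that starts microtubules on the sides of existing ones, and were named after their values had been seen. The augmin genes *Haus5* and *Haus6* were called lower there (-0.65 and -0.76, limma adjusted p = 0.0222 and 0.00279). The group's median difference was -1.44 at E11.5 and -0.76 at E15.5.

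Mitotic kinases and Cdc25 phosphatases held the exceptions. Of 10 members, 7, 8 and 8 were called lower and 2, 1 and 1 higher in Ebf2-EGFP+ cells. *Plk1*, the Polo-like kinase of mitotic entry and exit, went with the majority, from 59.8 and 57.6 FPKM in Ebf2-EGFP- and 19.2 and 19.4 in Ebf2-EGFP+ libraries at E11.5 to 13.4 and 5.19 against 1.48 and 1.1 at E15.5. *Plk2* (chromosome 13, 110395044 to 110400844), a Polo-like kinase known in neurons for its induction by activity and its place at synapses, ran the opposite way. It was at 10.9 and 8.74, 20.5 and 35.5, and 46.4 and 61.5 FPKM in Ebf2-EGFP- cells, and at 37.7 and 26, 60.6 and 74.7, and 97.9 and 111.1 in Ebf2-EGFP+ cells. The populations did not overlap at any stage, and levels were higher at each later stage in both. The differences were 1.59, 1.29 and 0.95 (SE 0.26, limma adjusted p = 0.000132, 0.000843 and 0.00802), and the last was not called without Ebf2-EGFP- E15.5 replicate 1 (0.75, adjusted p = 0.0637). *Plk2* was the only member called higher in Ebf2-EGFP+ cells at all 3 stages.

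*Plk3* (chromosome 4, 117128655 to 117133963), a Polo-like kinase known from stress responses, was called higher in the Ebf2-EGFP+ population of E11.5, and both its Ebf2-EGFP+ libraries lay above both others at every stage. It was at 17.8 and 16.5 FPKM there against 6.6 and 7.02 (1.22, SE 0.15, limma adjusted p = 1.8e-05), then at 5.6 and 5.47 against 4.48 and 5.26, and at 3.51 and 3.56 against 2.85 and 2.87. The later differences, 0.16 and 0.23, were not called (limma adjusted p = 0.355 and 0.204) but were called after median-of-ratios scaling (0.42 and 0.40, adjusted p = 0.0295 and 0.0467). *Nek7*, a NIMA-related kinase of the spindle poles named here after its values had been seen, was the third member not called at E11.5, with 7.63 and 6.44 against 10.7 and 8.83 FPKM (-0.42, limma adjusted p = 0.128). By E13.5 *Nek7* was at 1.42 and 0.647 against 7.44 and 5.35 FPKM, and it was called lower at both later stages.

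**Figure D3:**
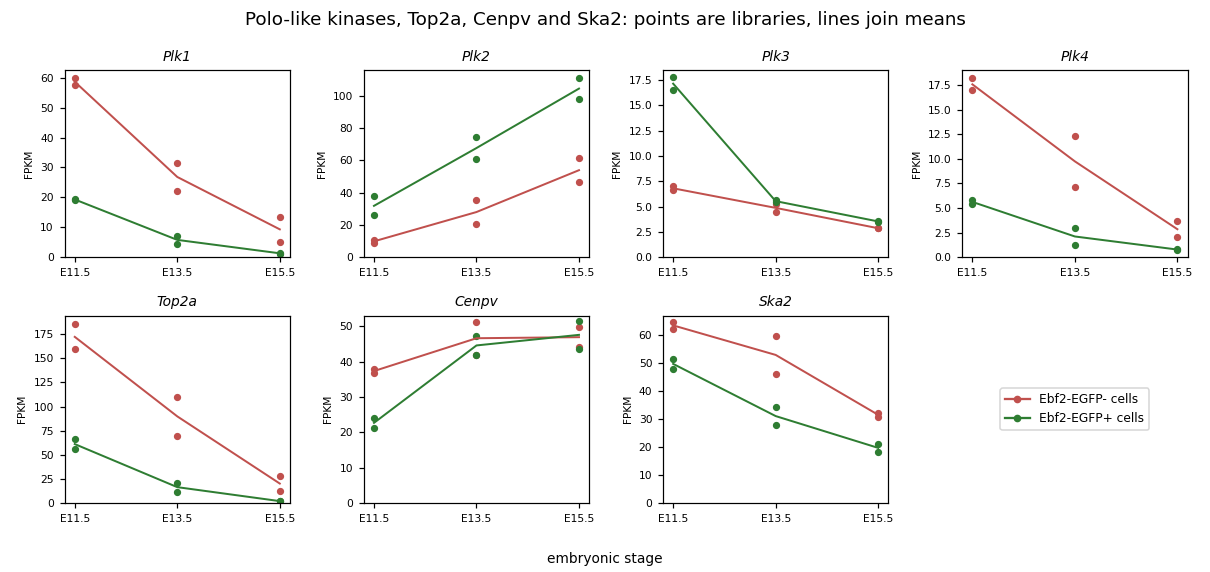
FPKM (linear axes from 0) by embryonic stage of the 4 Polo-like kinases, Top2a, Cenpv and Ska2. Each panel has 1 point per library and lines through means of 2 libraries (red for Ebf2-EGFP-, green for Ebf2-EGFP+). Plk2 rises to 97.9 and 111.1 FPKM in Ebf2-EGFP+ cells while Top2a falls to 2.17 and 1.74, and the Cenpv points of both populations overlap from E13.5.

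The 6 remaining genes named for association with cell division (Cdca) were called lower at every stage. *Cdca7* (chromosome 2, 72476187 to 72486892), a Myc-responsive gene whose protein recruits the chromatin remodeller HELLS, was at 77.5 and 71.4 FPKM in Ebf2-EGFP- and 5.62 and 7.64 in Ebf2-EGFP+ libraries at E11.5. Its differences of -3.32, -3.50 and -2.78 (SE 0.33) were the most negative of the set at each stage on this log2(FPKM + 1) scale. In FPKM it stood at 8.91%, 7.32% and 8.75% of the Ebf2-EGFP- mean, where *Cdca7l* had the lowest share at E11.5 (6.53%) and E13.5 (7.02%) and *Cdc25c* at E15.5 (8.01%). Its paralogue *Cdca7l* was at 14.6 and 12.9 against 0.792 and 1 FPKM at E11.5, and at 2.22 and 0.786 against 0.296 and 0.21 at E15.5. The E15.5 call of *Cdca7l* (-0.94, limma adjusted p = 0.00999) was lost without Ebf2-EGFP- E15.5 replicate 1 (-0.51, adjusted p = 0.111). *Cdca3*, which promotes degradation of the mitosis-inhibiting kinase Wee1, was at 73.7 and 64.1 against 20.3 and 18.4 FPKM at E11.5, and its Ebf2-EGFP+ mean was 28.1%, 17.8% and 11.4% of the other.

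**Figure D4:**
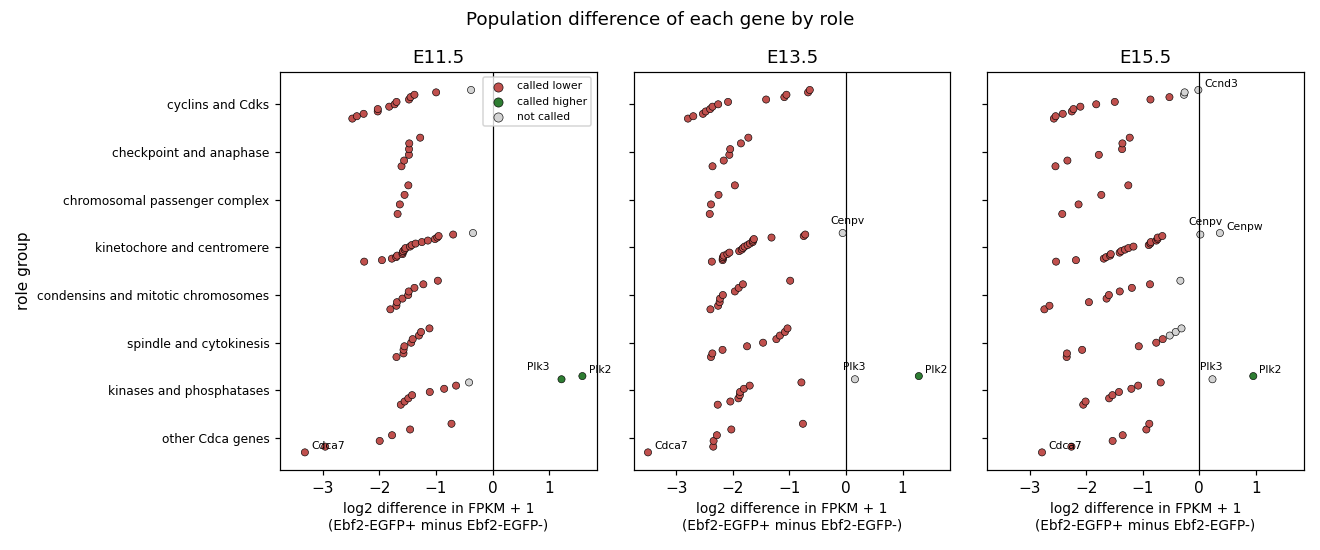
Difference between the populations for each of the 77 genes (x axis, log2 difference in FPKM + 1, Ebf2-EGFP+ minus Ebf2-EGFP-) by role (y axis), with 1 panel per stage. Red points were called lower, green higher and grey neither. Plk2 stands at 1.59, 1.29 and 0.95, and Cdca7 is the leftmost point at each stage.

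Comparing stages within a population asks how these transcripts changed as the cortex grew. In Ebf2-EGFP- cells, 40 of 77 were called lower between E11.5 and E13.5 (background 33.5%) and 2 higher (26%), and between E13.5 and E15.5 the counts were 70 lower (34.8%) and 1 higher (28.8%). The median changes were -0.68 and -1.53, against -0.14 and -0.10 over all genes. The first of these counts was lower without Ebf2-EGFP- E11.5 replicate 1 or 2 or Ebf2-EGFP- E13.5 replicate 2. Such a fit leaves 1 library in a group and widens the standard error. A lost call therefore need not reflect a smaller change. Erythroid genes fell in Ebf2-EGFP- cells between E11.5 and E13.5, from 1306 and 2752 to 13.8 and 12.6 FPKM. Interneuron or ganglionic eminence sums fell from 198 and 257 to 64.1 and 63, and meningeal or fibroblast sums from 126 and 108 to 5.45 and 3.52. Intermediate progenitor sums rose from 96.3 and 104 to 499 and 364, and cortical plate sums from 82.2 and 82.6 to 479 and 600. The part of these markers in the change of the set was not tested. In Ebf2-EGFP+ cells, 60 were called lower between E11.5 and E13.5 (36.1%) and 2 higher (21.8%), and 49 lower (17.3%) and 1 higher (24.6%) between E13.5 and E15.5, with medians of -1.15 and -0.95 against -0.20 and 0.03. Fewer genes were likewise called lower without Ebf2-EGFP+ E13.5 replicate 2 in the first interval and without Ebf2-EGFP+ E13.5 replicate 1 in the second. Median-of-ratios scaling raised the median of all genes by 0.12 in Ebf2-EGFP- and 0.16 in Ebf2-EGFP+ cells between E11.5 and E13.5, and the median of the set became -0.51 and -0.98.

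Over the whole course the members spread widely. Against E11.5, the median member was at 19.2% of its mean in Ebf2-EGFP- cells and at 13.7% in Ebf2-EGFP+ cells by E15.5. In Ebf2-EGFP+ cells *Top2a* reached 3.2%, *Mki67* 3.73%, *Ccnb1* 3.74% and *Bub1b* 4.66% of their E11.5 means, whereas *Cdk4* kept 49.5%, *Ska2* was at 39.6%, *Cenpv* at 210% and *Plk2* at 328%. *Mki67* fell in each of the 4 intervals (changes from -1.03 to -2.14, limma adjusted p at most 0.00212). *Plk2* rose in 3 of them, by 1.38 and 0.96 in Ebf2-EGFP- cells and by 1.08 in Ebf2-EGFP+ cells between E11.5 and E13.5 (limma adjusted p = 0.000866, 0.00745 and 0.00395). The *Plk2* change of 0.62 in Ebf2-EGFP+ cells between E13.5 and E15.5 was not called (limma adjusted p = 0.071), but was without Ebf2-EGFP- E13.5 replicate 1 or 2 (adjusted p = 0.0344 and 0.0346). Its second rise in Ebf2-EGFP- cells was lost without Ebf2-EGFP- E13.5 replicate 1 (0.58, adjusted p = 0.0923) or Ebf2-EGFP- E15.5 replicate 2 (0.76, adjusted p = 0.0583), and the rise in Ebf2-EGFP+ cells was lost without Ebf2-EGFP+ E11.5 replicate 2 (0.82, adjusted p = 0.0514). *Plk2* and *Cdk6* were the members called higher in Ebf2-EGFP- cells in the first interval, and *Plk2* and *Cenpv* in Ebf2-EGFP+ cells.

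The 6 group means fell into a common order. Ebf2-EGFP- cells at E11.5 held the highest mean in 71 of the 77 genes and Ebf2-EGFP+ cells at E15.5 the lowest in 69. These and the following counts of order are on unscaled FPKM, and the same counts were not made over all genes. The whole table leaned the same way between these groups. Its median-of-ratios size factors were 1.27 and 1.24 in the Ebf2-EGFP- libraries of E11.5 and 0.896 and 0.869 in the Ebf2-EGFP+ libraries of E15.5. The mean fell over the 3 stages in 72 genes in Ebf2-EGFP- cells, in 70 in Ebf2-EGFP+ cells and in 69 in both. *Ccnd3*, *Cdk6*, *Cenpl*, *Cenpv*, *Cenpw*, *Haus4*, *Nek6* and *Plk2* were the 8 that did not fall in both. Ebf2-EGFP+ cells at E11.5 lay above Ebf2-EGFP- cells at E15.5 in 64 genes, *Ccnd2*, *Cdk2* and *Cdca7* being among the 13 that did not. At E15.5 the mean was under 1 FPKM for 29 genes in Ebf2-EGFP+ and for 2 in Ebf2-EGFP- cells, and no member was listed at 0 in any library. Of all FPKM listed in the table, the set took 3.2% and 3.08%, 2.22% and 1.64%, and 0.912% and 0.681% in the Ebf2-EGFP- libraries of the 3 stages. The Ebf2-EGFP+ shares were 1.23% and 1.21%, 0.705% and 0.576%, and 0.353% and 0.371%.

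Replicates differed in these genes in 3 of the 6 groups. Replicate 1 was above replicate 2 in 75 of 77 genes in Ebf2-EGFP+ cells at E13.5, in 74 in Ebf2-EGFP- cells at E13.5 and in 71 in Ebf2-EGFP- cells at E15.5, with median log2 ratios of 0.51, 0.55 and 0.61 where all genes had 0.12, 0.09 and 0.10. In the other 3 groups the number was 49, 59 and 37. Radial glia markers differed in the same direction in Ebf2-EGFP- cells, with summed FPKM of 1619 and 1086, then 838 and 470, at these stages, as did 5 intermediate progenitor markers, with 499 and 364, and 354 and 192. In Ebf2-EGFP+ cells at E13.5 the radial glia sums were 226 and 204 and the intermediate progenitor sums 198 and 134. The marker sums also differed in Ebf2-EGFP+ cells at E15.5, where only 37 of the 77 genes were higher in replicate 1. There the radial glia sums were 154 and 90.2 and the intermediate progenitor sums 64.9 and 39.1. The part of these markers in the replicate difference was not tested.

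The change of the population difference between E11.5 and E15.5 was tested as an interaction. It was called for 19 of the 77 genes, 12 in which Ebf2-EGFP+ cells came closer to or above Ebf2-EGFP- cells (background 32%) and 7 in which they fell further behind or lost a lead (background 27.7%), and the median change was 0.10 against 0.17 over all genes. With the replicate number as a block the counts were 21 and 19, and with median-of-ratios scaling 13 and 14. They were 7 and 20 with a pseudocount of 0.1. The 2 counts thus depended on the scale, and the shares over all genes under these settings were not counted. The count of falls also varied when single libraries of the compared groups were left out, which leaves 1 library in a group. *Ccnd3* (2.26, SE 0.31, limma adjusted p = 0.00015), *Cdca7l* (2.02, SE 0.37, adjusted p = 0.000841) and *Ccne1* (1.56, SE 0.42, adjusted p = 0.00742) rose most. In Ebf2-EGFP- cells *Cdca7l* went from 14.6 and 12.9 to 2.22 and 0.786 FPKM and *Ccne1* from 21.4 and 17.8 to 2.23 and 1.45, with falls called in both intervals (the first of *Cdca7l* not without Ebf2-EGFP- E13.5 replicate 2, at -0.80, adjusted p = 0.0524). In Ebf2-EGFP+ libraries *Cdca7l* was at 0.21 to 1.002 FPKM and was not called in either interval. *Top2a* (-1.26, SE 0.49, limma adjusted p = 0.0443), *Ccnb1* (-1.19, SE 0.45, adjusted p = 0.0367) and *Mki67* (-1.16, SE 0.31, adjusted p = 0.00796) fell most. The call of *Top2a* was lost when any 1 of the 8 libraries at E11.5 and E15.5 was left out except Ebf2-EGFP- E15.5 replicate 2, with values from -1.38 to -0.69, and that of *Ccnb1* was lost in 6 of these 8. *Mki67*, *Tpx2*, *Plk3*, *Ccnd3*, *Ccne1* and *Cdca7l* were called under every pseudocount, scaling, block and left-out library tried.

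**Figure D5:**
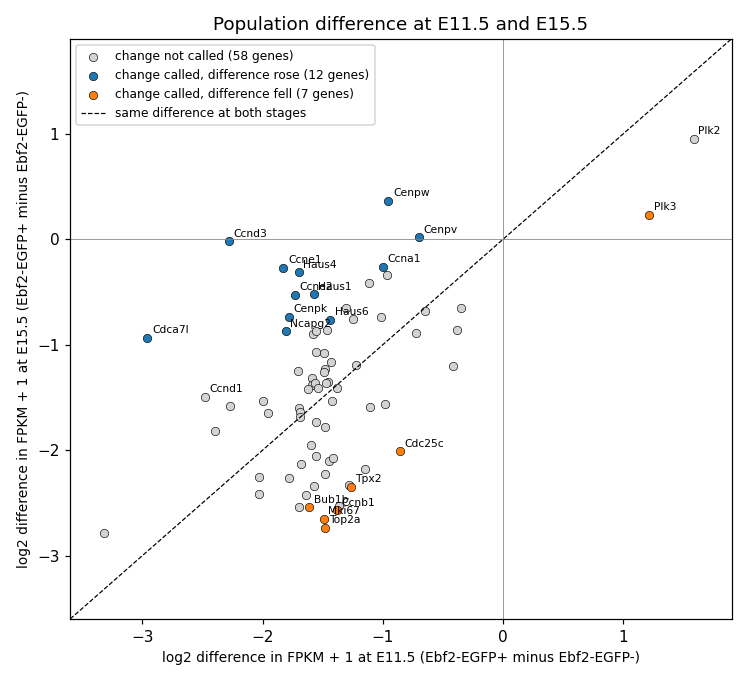
Population difference at E15.5 (y axis) against that at E11.5 (x axis) for the 77 genes, both as log2 difference in FPKM + 1 (Ebf2-EGFP+ minus Ebf2-EGFP-), with a dashed line where they are equal. The 12 blue genes were called for a rise and the 7 orange genes for a fall of the difference, and Ccnd3 lies at -2.28 and -0.02.

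Other regulators of the cell cycle outside the set were followed with a list of 76 genes, of which 61 were in the table. In Ebf2-EGFP+ cells, 54, 56 and 48 of them were called lower and 5, 2 and 2 higher at the 3 stages, with medians of -1.35, -1.78 and -1.16. Over all genes 44.9%, 43.5% and 31.6% were called lower and 36.8%, 32.1% and 25.8% higher, with medians of -0.19, -0.19 and -0.11. All 12 transcription factors of the list (E2F family, *Foxm1*, *Mybl2* and MuvB subunits) were in the table, of which 10, 12 and 8 were called lower and none higher, beside the same shares over all genes. *Foxm1*, the forkhead factor of G2 and mitosis genes, was at 43.6 and 40.7 against 14.9 and 15.7 FPKM at E11.5 and at 8.31 and 5.74 against 0.732 and 0.789 at E15.5. *Mybl2*, which joins MuvB at these promoters, was at 25.3 and 21.8 against 3.28 and 3.77 FPKM at E11.5 and at 3.6 and 1.95 against 0.343 and 0.329 at E15.5.

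Of the Cdk inhibitors and the Rb family, 5 of 9 were in the table. At the 3 stages, 3, 2 and 1 of them were called higher and 2, 2 and 3 lower. Over all genes the calls also went in both directions, with 36.8%, 32.1% and 25.8% higher and 44.9%, 43.5% and 31.6% lower. *Cdkn2c*, the gene of the Cdk4 and Cdk6 inhibitor p18, was called lower throughout (-1.15, -1.98 and -1.62, limma adjusted p at most 0.000768). *Rbl1*, the gene of the retinoblastoma relative p107, was at 2.44 and 3.05 against 17.8 and 20.2 FPKM at E11.5 and was also called lower throughout. The same held for *Wee1*, whose kinase holds back Cdk1, with 3.87 and 3.86 against 19.1 and 15.54 FPKM at E11.5. *Cdkn1a*, the gene of the Cdk inhibitor p21, was at 36.4 and 29 FPKM in Ebf2-EGFP+ and 1.7 and 1.17 in Ebf2-EGFP- libraries at E11.5, and at 9.59 and 5.51 against 1.84 and 1.01 at E15.5. *Cdkn1c*, the gene of p57, was at 108 and 93.6 against 57.8 and 55.8 FPKM at E11.5 and was called higher there and at E13.5 (0.81 and 0.87, limma adjusted p = 0.00202 and 0.00166), but not at E15.5, where the libraries overlapped. *Rb1*, the retinoblastoma gene, was at 39.1 and 36.7 against 19 and 16.8 FPKM at E11.5 (1.05, limma adjusted p = 2.29e-05), and was called lower at E15.5 with 17.5 and 19.1 against 24.8 and 25.9. The atypical cyclins *Ccng1* and *Ccng2*, linked to p53 and to cell cycle exit, were called higher at E11.5, with 17.6 and 14.4 against 9.31 and 9.3 and with 42.5 and 36.9 against 18.4 and 19.8 FPKM. *Ccng1* was again called higher at E15.5 (0.92, limma adjusted p = 0.00126), with 12.3 and 16.6 against 6.73 and 7.41 FPKM.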

How the data were processed

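RNA-seq libraries of FACS-sorted Ebf2-EGFP+ and Ebf2-EGFP- cortical cells (2 per population and stage, 12 in all) were analysed. Per the study's methods and the submitters' processing notes, poly(A) RNA was sequenced on an Illumina HiSeq, aligned with TopHat2 2.0.8b to mm10 and quantified with Cufflinks 2.2.0. The authors deposited FPKM values, normalized to transcript length and mapped fragments, for coding genes they had called different between the populations (their methods name Cuffdiff and their results DE-Seq), and only the per-library FPKM columns were used. The study's methods state an average number of reads over all samples. The depth of each library, its strand and the treatment of reads shared with pseudogenes are not given in the sources used here, so that overlapping antisense genes could not be separated. A long non-coding RNA table was not used.

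Values were compared on the log2 scale after adding a pseudocount of 1 to each FPKM value, by limma (version 3.58.1, under R 4.3.3; 1 mean for each of 6 groups, variance trend, Benjamini-Hochberg adjustment over 4859 genes, calls below an adjusted p of 0.05), without a block, as the study's methods name none. The fit was tested on simulated data. The named genes were all cyclins and Cdks, the 2 members with the highest mean FPKM in each other role, members called higher in Ebf2-EGFP+ cells, and the 3 highest and 3 lowest called interactions, which gave 29 genes. Members and lists were chosen with earlier results of these data known. Libraries with the same replicate number deviated together from their group means within each stage (r = 0.43, 0.53 and 0.43 over genes), so the numbers were treated as pairs in an alternative fit. Other alternatives were a pseudocount of 0.1, median-of-ratios scaling, a mean FPKM of at least 1, no variance trend, only the libraries of the groups compared, and leaving out each library. Leaving out a library of a compared group widens the standard error, so a call can be lost without a change of the difference. The replicates were separate samples in the labels. The p-values rest on the spread between the 2 libraries of a group, pooled for each gene over all 6 groups and moderated across genes. With n = 2, each library's value is printed instead of an SD. Gene positions and promoter sequences came from RefSeq (GRCm38.p6, the mm10 assembly).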

Additional observations from a re-analysis of the deposited data

Results flagged for a closer look

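In 12 of the 29 named genes the difference between the populations changed between E11.5 and E15.5. The calls were made by the interaction term of the limma fit (adjusted p below 0.05). Such calls were less frequent in the set than in the whole table. Of the 77 members, 12 were called higher and 7 lower, against 32% and 27.7% of all genes. The most extreme called interactions were 1 reason for naming a gene, so the count of named genes partly follows from that choice. On the log2(FPKM + 1) scale the change was -1.26 for *Top2a*, -1.19 for *Ccnb1*, -1.16 for *Mki67*, -1.08 for *Tpx2*, -0.99 for *Plk3* and -0.93 for *Bub1b*. It was 0.71 for *Cenpv*, 0.74 for *Ccna1*, 1.20 for *Ccne2*, 1.56 for *Ccne1*, 2.02 for *Cdca7l* and 2.26 for *Ccnd3*. In *Plk3* a lead of Ebf2-EGFP+ cells shrank, in *Ccnd3* and *Cenpv* the populations met at E15.5, and in *Ccna1*, *Ccne1*, *Ccne2* and *Cdca7l* they came closer as Ebf2-EGFP- cells fell. The calls of *Top2a*, *Ccnb1* and *Bub1b* were lost when any of 7, 6 and 6 single libraries at E11.5 or E15.5 was left out, with values as small as -0.69, -0.74 and -0.60, and that of *Cenpv* without Ebf2-EGFP+ E11.5 replicate 1 (0.63) or Ebf2-EGFP+ E15.5 replicate 2 (0.60). Those of *Ccna1* (0.87, adjusted p = 0.186) and *Ccne2* (0.91, adjusted p = 0.17) were lost with a pseudocount of 0.1. The other members called for this change were *Cenpk*, *Cenpw*, *Haus1*, *Haus4*, *Haus6* and *Ncapg2* (higher) and *Cdc25c* (lower).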

How the results depend on the processing

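Between the populations, the number of genes called lower stayed within 1.5 times the reported count under every alternative run, with 70 to 73, 72 to 74 and 54 to 67 in order of stage when libraries were left out. The number called higher was 2 at E13.5 and 3 at E15.5 with median-of-ratios scaling, 2 at E15.5 with the replicate block, and 0 to 1 at E15.5 when libraries were left out (0 without Ebf2-EGFP- E15.5 replicate 1). The block changed no other population count by more than 1.5 times, and stage changes cannot carry a block within stages. From E11.5 to E13.5 in Ebf2-EGFP- cells the number called higher was 1 with a pseudocount of 0.1, 1 with only the libraries compared and 1 to 2 when libraries were left out, where 10 to 54 were called lower. From E13.5 to E15.5 in these cells 0 to 1 were called higher. In Ebf2-EGFP+ cells, leaving out libraries gave 1 to 3 higher and 37 to 66 lower in the first interval and 0 to 2 higher and 26 to 54 lower in the second, where only the libraries compared gave 2 higher. For the change of the population difference, leaving out libraries gave 9 to 18 higher and 3 to 19 lower. There the count of rises was 7 with a pseudocount of 0.1 and 21 with the block, and the count of falls was 20 with a pseudocount of 0.1, 14 with scaling and 19 with the block. Shares over all genes under these alternatives were not counted, and the cause was not tested.

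Signs turned in 23 repeats of values for named genes, none of which had been called. With median-of-ratios scaling *Cenpv* was at 0.25 at E13.5, *Ccnd3* at 0.18 at E15.5 and *Cdk6* at 0.065 between E13.5 and E15.5 in Ebf2-EGFP- cells, and with a pseudocount of 0.1 the change of the difference was -0.013 for *Cdk2* and 0.028 for *Cdk6*. Leaving out single libraries gave ranges across 0 for the population difference of *Cenpv* (-0.20 to 0.084 at E13.5 and -0.10 to 0.14 at E15.5) and *Ccnd3* (-0.35 to 0.31 at E15.5). The same held in Ebf2-EGFP- cells for *Cdk4* (-0.41 to 0.045) in the first interval, and for *Ccnd3* (-0.58 to 0.087), *Cdk6* (-0.13 to 0.044) and *Cenpv* (-0.13 to 0.16) in the second. In Ebf2-EGFP+ cells it held in the second interval for *Ccna1* (-0.20 to 0.14), *Cdk6* (-0.14 to 0.071) and *Cenpv* (-0.029 to 0.21). The change of the difference ranged from -0.57 to 0.21 for *Cdca8*, from -1.11 to 0.11 for *Plk1* and from -1.06 to 0.094 for *Cdca3*, with the highest value in each without Ebf2-EGFP- E15.5 replicate 1. Of the 29 named genes, 27, 26 and 22 kept call and sign under all their alternatives at the 3 stages, against 8 for the change of the difference. For named genes these alternatives were the pseudocount of 0.1, median-of-ratios scaling, the block where it applied and the left-out libraries. The mean FPKM filter, the fit without a trend and the fit on only the compared libraries were followed for counts alone. The tables hold FPKM and no counts, so the counting error of a value cannot be given.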
